A study of Rattus norvegicus with 4 samples.

Results

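The antioxidant and NRF2 pathway genes described here are 8 genes: Keap1, Osgin1, Nqo1, Gsta1, Hmox1, Slc7a11, Sod3 and Mt2A. They were chosen by gene symbol from a longer list of antioxidant genes with their values on these arrays already known, so every value below describes them and none tests them. They were measured by 9 probes, 2 for Hmox1 and 1 for each other gene, among 20500 measured probes and 9653 named genes.

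Primary cultures of ventricular heart cells from newborn Wistar rats were grown in HAM F10 medium containing 10% horse serum and 10% fetal calf serum. Eicosapentaenoic acid (EPA) or docosahexaenoic acid (DHA) was added at 60 µM to the supplemented cultures. They are polyunsaturated n-3 fatty acids of which DHA has the longer chain and more double bonds, and the control cultures had neither added. No genotype or allele is given by the labels, and medium was renewed every 48 h until confluence, when all cultures were collected. Each fatty acid was compared with unsupplemented cells on 2 arrays of 2 colours, with the supplemented cells labelled with Cy5 on array 1 and with Cy3 on array 2. Such cultures hold fibroblasts, macrophages and vessel cells beside cardiomyocytes. Only ratios of the channels were used here, so the presence of the defining cardiomyocyte markers could not be checked by level.

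The transcription factor NRF2, encoded by Nfe2l2, drives the genes of detoxification and antioxidant defence. KEAP1 holds NRF2 in the cytoplasm and presents it for degradation. Electrophiles and oxidants, among them products of polyunsaturated fatty acid peroxidation, modify cysteines of KEAP1, after which NRF2 accumulates and binds antioxidant response elements. NQO1 reduces quinones, glutathione transferases conjugate electrophiles, heme oxygenase degrades heme, the transporter SLC7A11 imports cystine for glutathione synthesis and OSGIN1 is an oxidative stress response protein. Extracellular superoxide dismutase (SOD3) and the metal-binding protein metallothionein 2A extend this defence, the latter also under the control of the zinc-sensing factor MTF1.

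Promoter windows of GRCr8 from RefSeq, running from 250 bases before to 50 bases after the annotated start, were at hand for 6 of the 8 members. The antioxidant response element core TGACNNNGC, searched on both strands, occurred in the windows of Mt2A and Gsta1. It occurred in 12.1% of all 33469 windows. Those 2 windows are shown because they hold that core, that of Nqo1 because this gene had the highest DHA mean, and that of Slc7a11 because its 4 values as read here lay closest together. The capitals mark matches to the motifs named below.
Mt2A: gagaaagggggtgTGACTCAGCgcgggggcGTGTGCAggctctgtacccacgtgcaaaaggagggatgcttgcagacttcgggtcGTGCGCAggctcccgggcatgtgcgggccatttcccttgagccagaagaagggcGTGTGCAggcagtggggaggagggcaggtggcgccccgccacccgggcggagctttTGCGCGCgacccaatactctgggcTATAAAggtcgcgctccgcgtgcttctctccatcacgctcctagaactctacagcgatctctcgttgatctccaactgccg
Gsta1: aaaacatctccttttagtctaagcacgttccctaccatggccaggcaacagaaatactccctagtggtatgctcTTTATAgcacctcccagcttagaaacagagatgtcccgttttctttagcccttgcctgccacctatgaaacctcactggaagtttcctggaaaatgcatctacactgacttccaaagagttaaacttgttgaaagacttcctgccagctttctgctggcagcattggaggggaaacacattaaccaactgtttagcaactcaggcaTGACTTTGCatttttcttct
Nqo1: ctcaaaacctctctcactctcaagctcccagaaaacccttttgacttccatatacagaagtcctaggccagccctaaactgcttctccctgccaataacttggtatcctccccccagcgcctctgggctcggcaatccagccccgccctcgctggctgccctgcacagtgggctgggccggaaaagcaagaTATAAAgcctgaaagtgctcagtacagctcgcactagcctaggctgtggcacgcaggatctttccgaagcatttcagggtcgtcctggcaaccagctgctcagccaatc
Slc7a11: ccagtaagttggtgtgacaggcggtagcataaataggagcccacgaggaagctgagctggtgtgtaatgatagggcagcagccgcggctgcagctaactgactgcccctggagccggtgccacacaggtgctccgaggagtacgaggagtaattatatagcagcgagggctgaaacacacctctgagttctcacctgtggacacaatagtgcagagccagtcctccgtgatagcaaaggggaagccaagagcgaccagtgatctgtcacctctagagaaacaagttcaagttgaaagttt
They lie at chr19:10838659-10838958 (Mt2A), chr9:31216483-31216782 (Gsta1), chr19:52220218-52220517 (Nqo1) and chr2:136668215-136668514 (Slc7a11), all on the minus strand. The Mt2A window held 1 antioxidant response element core, TGACTCAGC, from base -237. The AP-1 site TGAGTCA, read on the other strand, lay within it, and 4.63% of all windows had that site. The same window held 4 metal response element cores, the sites bound by MTF1: 2 of the form TGCACNC, which 12.2% of windows had, and 2 of the form TGCGCNC, which 14.1% had. Its TATA box (TATAAA, in 14.2% of windows) lay at base -31. The Gsta1 window had its antioxidant response element core after the start, from base 31, and a TATAAA match on the other strand from base -176. The Nqo1 window had a TATAAA match from base -59 and the Slc7a11 window no match. In the windows not printed, Keap1 had 1 and Osgin1 had 2 matches to TGCACNC. None of the 6 windows held the amino acid response element core TGATGNAA, present in 3.98% of all. A match is a description of these letters and not a bound site, and no match refers only to this short window.

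**Figure D1:**
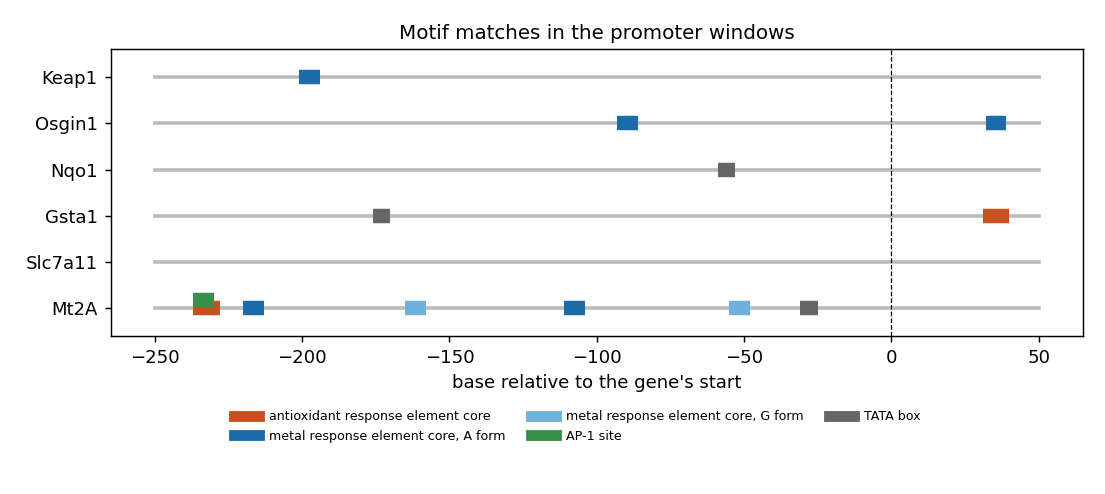
Positions of motif matches in the promoter windows of 6 antioxidant genes; the x axis is the base relative to the annotated start (dashed line), grey lines are the windows of 250 bases before and 50 after it, and coloured bars are the matches on either strand. Mt2A has 7 matches, 4 of them to metal response element cores, and Slc7a11 has none.

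All values are log2 ratios with the median of each array set to 0. They were taken to have the fatty acid in the numerator on each of the 4 arrays, which is likely and not stated: the sample titles name the supplemented cells, and the PPAR target genes Cpt1b and Hilpda, textbook responders to fatty acids, lay between 0.59 and 1.3 on all 4 arrays. The arrays of a swap correlated across the 20500 probes at a Pearson's r of -0.11 for EPA and -0.029 for DHA, and this does not settle the reading. If the table ran as Cy5 over Cy3, arrays 2 would change sign. The log base was read as 2. In base 10 the Nqo1 mean with DHA would be 4.0-fold in place of 1.52-fold. Both arrays of a swap were taken as one RNA sample set against one control RNA. No replicate check therefore exists for either fatty acid, no difference between EPA and DHA could be tested, and errors are the half-difference of the 2 arrays.

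The arrays differed along their surface, and 4 of the 9 probes lie where this was widest or at an edge. In the columns and rows inferred from the order of the features, DHA array 1 had 1084 values under -1, of which 1076 lay in the first 66 columns. The probe of Gsta1 (column 15) and probe 1 of Hmox1 (column 43) lie there. Keap1 (column 213) lies near the last columns, where the median of its own column stood at 0.12 on both EPA arrays and at 0.027 and 0.077 on DHA arrays 1 and 2. Osgin1 lies in the last row, with row medians of 0.13, 0.11, 0.075 and 0.069 in the same order. The other 5 probes lie in columns 83 to 185, where shifts also occurred: the column median of Slc7a11 was -0.089 on EPA array 1 and its row median -0.086 on DHA array 1. EPA array 1 was shifted upward in the first 66 columns, with a median of 0.11 against -0.036 elsewhere.

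**Figure D2:**
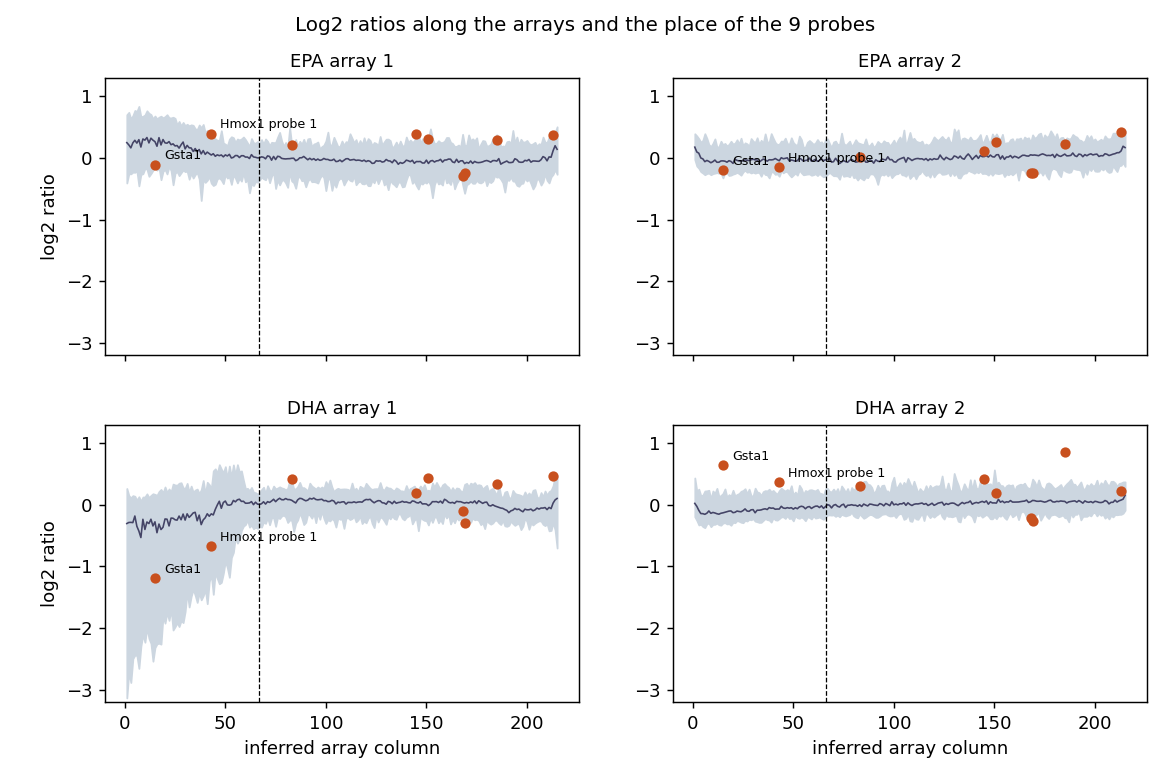
Log2 ratio (y axis) along the inferred array columns (x axis) on each of the 4 arrays: the line is the median of each column, the band its 5th to 95th percentile, the dashed line the end of the first 66 columns, and orange points the 9 antioxidant gene probes. On DHA array 1 Gsta1 at -1.20 and Hmox1 probe 1 at -0.67 sit inside the wide band of the first columns.

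Read as log2, no antioxidant gene reached the size rules, and this count depends on the log base. Of the 9 probes, 0 were at least 1.5-fold on both EPA arrays in the same direction, against 0.0341% of all probes, and 0 on both DHA arrays, against 0.0634%. At 1.3-fold the counts were again 0 and 0, against 0.376% and 0.317% of all probes. Keap1 with EPA reached 1.3-fold once the arrays were centred without the first 66 columns, and Nqo1 with DHA once a local median was removed or the arrays were quantile normalized. Read as base 10, 5 of the 9 probes would be past 1.5-fold on both EPA arrays (Keap1, Nqo1, Mt2A, Slc7a11 and Sod3), against 5.35% of all probes. In the same reading 6 would be past it on both DHA arrays (Keap1, Osgin1, Nqo1, Mt2A, Slc7a11 and Hmox1 probe 2), against 5.13%. On all 4 arrays 7 of the 9 probes kept to one side of 0, against 13.9% of all probes: 5 above (7.54% of all) and 2 below (6.32%). The members were picked on these values, so nothing is read from that share. As Cy5 over Cy3 the count of 7 would be 0, since a change of sign on arrays 2 must split each of the 7. Above 0 were Keap1, Osgin1, Nqo1, Mt2A and Hmox1 probe 2, below 0 Slc7a11 and Sod3, and on both sides Gsta1 and Hmox1 probe 1.

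**Figure D3:**
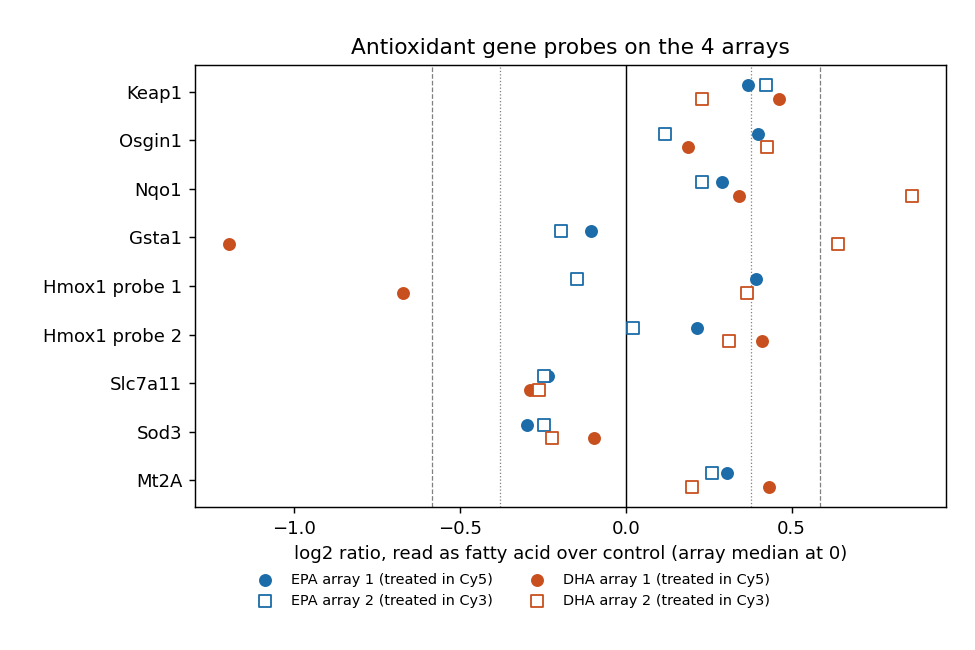
Log2 ratio of each antioxidant gene probe on the 4 arrays (x axis), relative to control; filled circles are arrays 1 and open squares arrays 2, blue is EPA and orange DHA, and dotted and dashed lines mark 1.3-fold and 1.5-fold. Slc7a11 spans -0.29 to -0.23, whereas Gsta1 spans -1.20 to 0.64.

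Keap1, the inhibitor and sensor of the pathway, lay above control on every array. Its probe (feature 5373) was at 0.37 and 0.42 on arrays 1 and 2 with EPA, and at 0.46 and 0.23 with DHA. The EPA and DHA arrays overlapped, with DHA array 2 the lowest. The means were 0.40 ± 0.027 (1.32-fold) with EPA and 0.35 ± 0.12 (1.27-fold) with DHA. On EPA array 1 the value lay just under the threshold of 0.38 for 1.3-fold, and EPA array 2 was past it. With the median of its column removed the means were 0.28 with EPA and 0.30 with DHA. With a local median removed they were 0.35 and 0.27. Which fatty acid had the larger shift shared with neighbours on the array thus depended on the step. With a local median removed DHA array 2 stood at 0.086.

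Osgin1, a stress response gene that restrains cell growth and a known NRF2 target in human cells, was above control on every array, with the arrays of each swap far apart. The probe (feature 22505) was at 0.40 and 0.12 on EPA arrays 1 and 2 and at 0.19 and 0.43 on DHA arrays 1 and 2. The high array was the first with EPA and the second with DHA. The means were 0.26 ± 0.14 (1.20-fold) with EPA and 0.31 ± 0.12 (1.24-fold) with DHA. With a local median removed EPA array 2 was at 0.0097, and its EPA mean was 0.20.

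Nqo1, the quinone reductase often used as the reference target of NRF2, had the highest DHA mean of the 8 genes, but with EPA it lay below Keap1 and Mt2A. It was at 0.29 and 0.23 on arrays 1 and 2 with EPA, and at 0.34 and 0.86 with DHA (feature 19535). DHA array 2 stood apart, at percentile 99.6 of the probes of that array. The other 3 arrays lay close together, at percentiles 88.7 to 96.6. The mean was 0.26 ± 0.031 (1.20-fold) with EPA and 0.60 ± 0.26 (1.52-fold) with DHA. Without DHA array 2 the DHA value was 0.34, and without DHA array 1 it was 0.86. EPA minus DHA was -0.051 on arrays 1 and -0.63 on arrays 2, a mean of -0.34 ± 0.29. The difference between the fatty acids thus came mostly from one dye orientation. Removing column medians left the means at 0.25 and 0.59. Read as Cy5 over Cy3 they would be 0.031 and -0.26.

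Gsta1, a glutathione transferase of the alpha class, had no common side under DHA. Its probe (feature 19150) was at -0.10 and -0.19 on EPA arrays 1 and 2, but at -1.20 and 0.64 on DHA arrays 1 and 2. Those DHA values are at percentiles 4.15 and 99.4 of their arrays. The EPA mean was -0.15 ± 0.045 (0.902-fold), and it was -0.25 with a local median removed and -0.26 with column medians removed. The median of its column was 0.27 on EPA array 1. The DHA mean of -0.28 ± 0.92 balances opposite values and turned sign under quantile normalization. Without DHA array 1 the DHA value was 0.64, a size with 1 array only. The part of the shift on that array in the result was not tested. Among its paralogs, whose transcripts are similar enough that probes of this age may not separate them, Gsta3 was at -0.11 and -0.21 with EPA and 0.51 and 0.34 with DHA. Gsta4 was at -0.41 and -0.11 with EPA and 0.14 and 0.02 with DHA, and the 2 probes of Gsta2 averaged -0.039 with EPA and 0.056 with DHA. These 3 paralogs have no probe in the first 66 columns, and were singled out after their values were seen. On the arrays 2, Gsta1, Gsta3 and Gsta4 were below 0 with EPA and above 0 with DHA, whereas the Gsta2 average was below 0 with both. On DHA array 1, Gsta1 was at -1.20 but the 3 paralogs were above 0.

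Hmox1, the inducible heme oxygenase, gave different pictures with its 2 probes. Probe 1 (feature 6708), in the first 66 columns, was at 0.39 and -0.15 on EPA arrays 1 and 2 and at -0.67 and 0.36 on DHA arrays 1 and 2. Probe 2 (feature 13198), outside them, was at 0.21 and 0.022 with EPA and at 0.41 and 0.31 with DHA. Both probes were higher on EPA array 1 than on EPA array 2, and they lay on opposite sides of 0 on EPA array 2 and on DHA array 1. On DHA array 2 they were close, at 0.36 and 0.31. The EPA means were equal at this precision, 0.12 ± 0.27 for probe 1 and 0.12 ± 0.096 for probe 2. The DHA means were -0.15 ± 0.52 and 0.36 ± 0.050 (1.28-fold). By probe 2 alone, EPA minus DHA was -0.20 on arrays 1 and -0.29 on arrays 2, and both DHA arrays were above both EPA arrays. Averaging the probes gives 0.12 ± 0.18 with EPA and 0.10 ± 0.23 with DHA, but the EPA average turned to -0.063 without EPA array 1 and the DHA average to -0.13 without DHA array 2.

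Slc7a11, the cystine importer that supplies glutathione synthesis and a target of both NRF2 and ATF4, lay below control on every array, with the 4 values as read here within a narrow range. The probe (feature 15864) was at -0.23 and -0.25 on EPA arrays 1 and 2 and at -0.29 and -0.26 on DHA arrays 1 and 2. Both DHA arrays were lower than both EPA arrays, by little. The means were -0.24 ± 0.0061 (0.847-fold) with EPA and -0.27 ± 0.014 (0.827-fold) with DHA. EPA minus DHA was 0.055 on arrays 1 and 0.014 on arrays 2. With a local median removed the 4 values spread from -0.29 to -0.15, and both DHA arrays then lay between the EPA arrays. The 4 values were thus closer together before that step than after it, and their range of 0.14 was then wider than that of Sod3, 0.095. Its partner Slc3a2, the heavy chain that carries SLC7A11 to the membrane, was at 0.24 ± 0.21 with EPA and 0.12 ± 0.15 with DHA.

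Sod3, which removes superoxide outside the cell, also lay below control on every array. It was at -0.30 and -0.25 on EPA arrays 1 and 2 and at -0.096 and -0.22 on DHA arrays 1 and 2 (feature 12423). Before any spatial shift was removed, both EPA arrays were lower than both DHA arrays. The means were -0.27 ± 0.026 (0.828-fold) and -0.16 ± 0.063 (0.896-fold). EPA minus DHA was -0.20 on arrays 1 but -0.025 on arrays 2. With a local median removed the order of EPA and DHA was lost. Both EPA arrays were then at -0.24, and DHA arrays 1 and 2 at -0.17 and -0.26. The intracellular dismutases did not share one side: Sod1 was at -0.098 ± 0.045 with EPA and 0.12 ± 0.093 with DHA, and Sod2, the mitochondrial form, was at 0.23 and 0.077 on arrays 1 and at -0.33 and -0.35 on arrays 2, so the values of EPA and DHA changed sign together with the dye orientation.

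Mt2A, the metallothionein whose promoter window is printed above, lay above control on every array. The probe (feature 17566) was at 0.30 and 0.26 on EPA arrays 1 and 2 and at 0.43 and 0.20 on DHA arrays 1 and 2. The EPA arrays fell between the DHA arrays. The means were 0.28 ± 0.022 (1.22-fold) and 0.32 ± 0.12 (1.24-fold), and 0.30 and 0.31 with column medians removed. Mt1, a gene of such similar sequence that its RNA may also bind the Mt2A probe, was also above 0 on all 4 arrays but mainly on arrays 1, at 0.78 and 0.76 there against 0.059 and 0.072 on arrays 2 with EPA and DHA. The brain form Mt3 was at 0.23 ± 0.18 and 0.22 ± 0.084. Mtf1, the zinc-sensing factor, with 1 of 2 probes in the first 66 columns, was at -0.0053 with EPA and -0.048 with DHA, and Slc30a1, a zinc exporter and MTF1 target, at -0.14 and -0.00098.

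**Figure D4:**
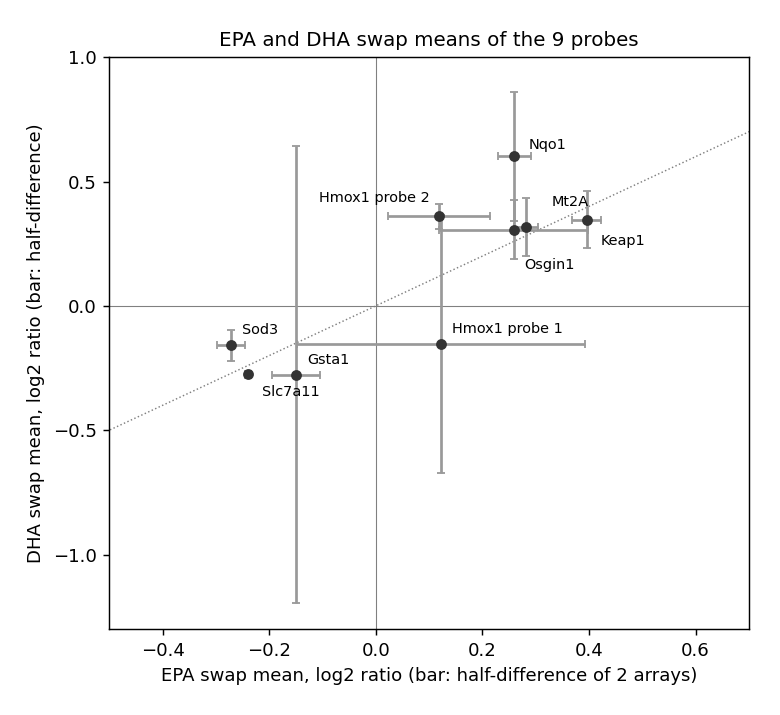
Swap mean with EPA (x axis) against swap mean with DHA (y axis) of the 9 probes, log2 ratios over control; bars are the half-difference of the 2 arrays and the dotted line marks equal means. Keap1, Osgin1 and Mt2A lie near the line, Nqo1 above it at 0.26 and 0.60, and the bars of Gsta1 and Hmox1 probe 1 cross 0 on the DHA axis.

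Between the fatty acids at the same 60 µM, the means of Keap1, Osgin1, Mt2A and Slc7a11 were close. EPA minus DHA was 0.048 ± 0.14 for Keap1, -0.048 ± 0.26 for Osgin1, -0.033 ± 0.095 for Mt2A and 0.035 ± 0.020 for Slc7a11. For Sod3 it was -0.11 ± 0.089 and for Nqo1 -0.34 ± 0.29. With 1 RNA sample each, this is no sign that EPA and DHA act alike or differently on these genes. The sources do not say whether one control RNA served both, so the fatty acids and the level in a shared control cannot be told apart for values common to both.

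The patterns nearest to those of the 3 members farthest from 0 were looked up among all named genes, by Euclidean distance over the 4 arrays. Nearest to Nqo1 was Decr1, an enzyme of unsaturated fatty acid oxidation, at a distance of 0.25 with values of 0.19, 0.43, 0.33 and 0.77. Gcg (0.38) and Ppp2r1a (0.40) followed. Nearest to Keap1 were Slc34a1 (0.14), Psd2 (0.14) and Slc12a9 (0.18). Nearest to Gsta1 were Plekha1 (0.35), Ppp1r15a (0.43) and Acp5 (0.44), all at or under -0.97 on DHA array 1. A probe of Plekha1 and that of Acp5 lie in the first 66 columns.

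Other genes of the pathway did not share a direction. Among them, highest and lowest below refer to the mean over the 4 arrays, and a gene can be neither with EPA or DHA alone. Of 96 listed genes, chosen with earlier results of these data known, 79 were measured by 91 probes. Tested on the swap means of EPA and DHA together by limma over all 20500 probes, 0 of the 91 probes passed an adjusted p of 0.05, against 0% of all probes, and the smallest adjusted p was 0.891. At an unadjusted p of 0.05 by limma the counts were 9 of the 91 and 909 of all probes. The fit had 2 values per probe and passed none of the 20500, those of Cpt1b and Hilpda included. Its 0 is therefore no sign that the list was unchanged. Leaving the first 66 columns out of the fit gave 274 of all 14222 probes and 4 list probes of 56, those of Mt1, Gstp1, Prdx4 and Tkt, with adjusted p of 0.00389, 0.0279, 0.0286 and 0.0369 by limma. With the arrays also recentred without those columns it gave 2 of all probes and 0 of the list, with adjusted p of 0.131, 0.277, 0.175 and 0.264. None of these p measures the spread between the arrays of a swap. Mt1 was at 0.78 and 0.059 on EPA arrays 1 and 2, Gstp1 at 0.50 and -0.10 and Tkt at -0.23 and 0.60. On all 4 arrays 6 of the 79 genes (7.59%) were above 0 and 4 (5.06%) below, against 7% and 7.59% of all named genes. The list's medians were -0.032 with EPA and -0.00098 with DHA, and those of all named genes -0.0012 and 0.00021. Of the 45 list genes without a probe in the first 66 columns, 6 were above 0 on all 4 arrays and 3 below. Among all named genes without such a probe the shares were 8.40% and 6.84%. The medians of the 45 were -0.042 with EPA and 0.068 with DHA, against -0.017 and 0.028. At 1.3-fold on both arrays, 0 of the 79 genes were past the threshold with EPA (0.259% of all genes) and 1 with DHA (0.383%). In base 10 these counts would be 8 and 17, against 11.3% and 10.9%.

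The regulators gave 0 of 10 measured genes on one side of 0 on all 4 arrays. Nfe2l2, the gene of NRF2 itself, was at 0.054 ± 0.017 with EPA and 0.055 ± 0.088 with DHA. Sqstm1, which binds KEAP1 and is an NRF2 target, was the highest of the group at 0.19 ± 0.079 and 0.043 ± 0.076. It has 1 of 2 probes in the first 66 columns. Cul3, the scaffold of the ubiquitin ligase that KEAP1 serves, was the lowest by its mean of -0.23 over the 4 arrays, at -0.032 ± 0.081 and -0.43 ± 0.42, with 2 of its 3 probes in the first 66 columns.

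Among genes of glutathione use, the 6 measured for synthesis and recycling included 1 above 0 on all 4 arrays. This was Gsr, glutathione reductase, at 0.042 ± 0.024 and 0.15 ± 0.0096. Gclm, the modifier of the rate-limiting enzyme and a standard NRF2 target, was at -0.065 ± 0.10 and 0.096 ± 0.052. The lowest was Ggt1 at -0.067 ± 0.092 and 0.050 ± 0.13. Of the 6 peroxidases 0 kept one side. Gpx2 was the highest at 0.11 ± 0.20 and 0.078 ± 0.061, and Gpx3, with its probe in the first 66 columns, the lowest at -0.039 ± 0.28 and -1.07 ± 1.25. Of 13 transferases 1, Mgst3, was below 0 on all 4 arrays, at -0.12 ± 0.018 and -0.0097 ± 0.0057. Gstp1, the pi-class transferase, was the one pathway gene past 1.3-fold on both arrays of a swap, at 0.77 and 0.51 with DHA (mean 0.64 ± 0.13), whereas with EPA it was at 0.50 and -0.10. Mgst1 was the lowest at -0.28 ± 0.069 and -0.73 ± 0.83, its probe in the first 66 columns.

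Of 13 enzymes and exporters of quinones, aldehydes and foreign compounds, 3 were above 0 on all 4 arrays: Abcc1, Abcc3 and Akr1a1. Abcc1, which exports glutathione conjugates, was the highest at 0.42 ± 0.10 with EPA and 0.13 ± 0.012 with DHA. Akr1b1, aldose reductase, was the lowest at -0.25 ± 0.49 and -0.40 ± 0.62, its probe in the first 66 columns. Of 12 thioredoxin system genes 1, Prdx4, was below 0 on all 4 arrays, at -0.33 ± 0.31 and -0.27 ± 0.19. Txnrd2 was the highest at 0.18 ± 0.016 and 0.069 ± 0.10, and Prdx2, with 1 of 2 probes in the first 66 columns, the lowest at -0.19 ± 0.22 and -0.81 ± 0.95.

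Of the 4 dismutase and catalase genes 0 kept one side. Cat, with its probe in the first 66 columns, was the highest at 0.043 ± 0.50 and 0.44 ± 0.25, and Ccs, the copper chaperone of SOD1, the lowest by its mean of -0.10 over the 4 arrays, at -0.088 ± 0.097 and -0.12 ± 0.21. In the heme and iron group 1 of 7 genes, Hmox2, the constitutive heme oxygenase, was below 0 on all 4 arrays at -0.078 ± 0.033 and -0.90 ± 0.78. Blvrb was the lowest at -0.0046 ± 0.19 and -1.14 ± 1.40, and Slc40a1, the iron exporter, the highest by its mean of 0.043 over the 4 arrays, at -0.090 ± 0.11 and 0.17 ± 0.0055. The probes of Hmox2 and Blvrb lie in the first 66 columns. In the metallothionein group 2 of 4 genes, Mt1 and Mt3, were above 0 on all 4 arrays. Of the 4 genes of NADPH supply 1, Idh1, was below 0 on all 4 arrays at -0.28 ± 0.22 and -0.057 ± 0.016. Tkt was the highest at 0.18 ± 0.41 and 0.52 ± 0.15. Me1, with 1 of 2 probes in the first 66 columns, was the lowest at -0.047 ± 0.21 and -0.33 ± 0.59.

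**Figure D5:**
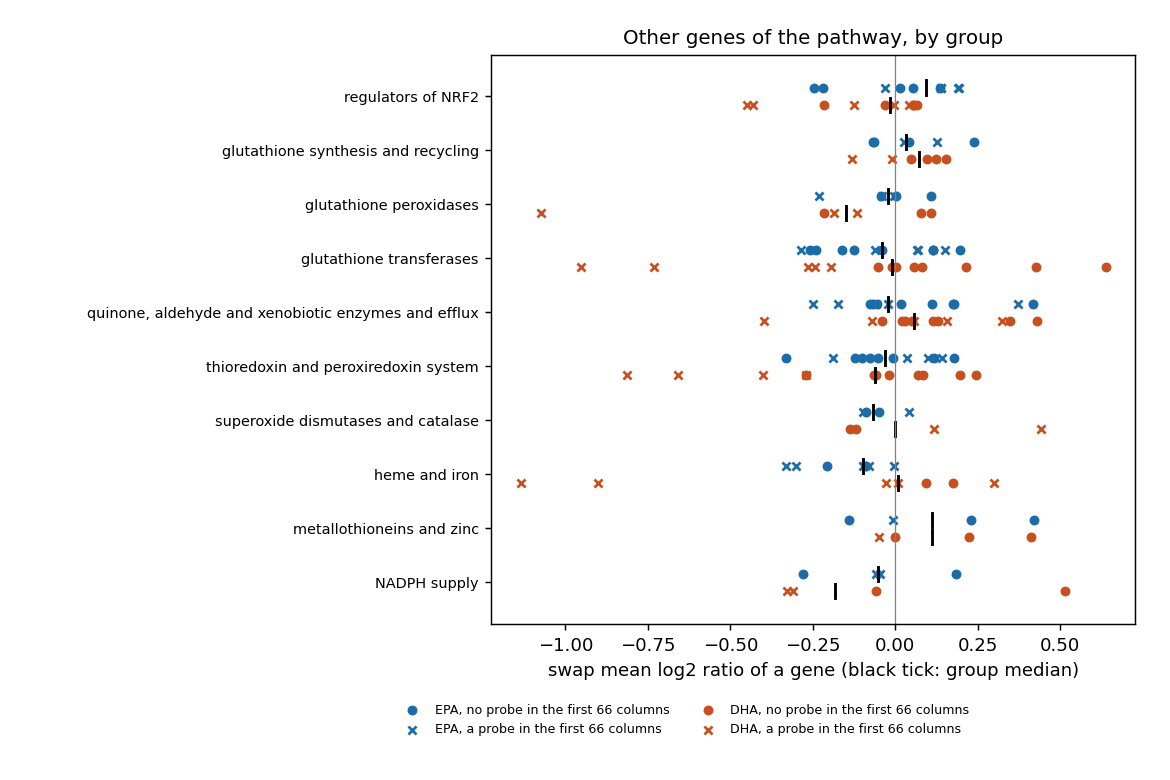
Swap mean log2 ratio (x axis) of each other gene of the pathway with EPA (blue) and DHA (orange), by group (y axis); crosses are genes with a probe in the first 66 columns and black ticks group medians. The values under -0.6 are DHA means of genes with such a probe, down to -1.14 for Blvrb.

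Markers of other cell types were read on the same arrays, since fewer cells of a type and less RNA per cell cannot be told apart in whole cultures. Of 8 macrophage markers 0 were above and 3 below 0 on all 4 arrays, against 7% and 7.59% of all named genes. The lowest by the mean over the 4 arrays were Lyz2, at -0.74 ± 0.45 and -0.77 ± 0.36, and Mmp12, at -0.66 ± 0.19 and -0.84 ± 0.21. Cd14 was also below, at -0.16 ± 0.068 and -0.20 ± 0.088. Another 5 lay on both sides of 0, the highest by that mean being Cd68 at 0.025 ± 0.26 and 0.062 ± 0.11. The list's medians were -0.17 with EPA and -0.027 with DHA. Macrophages express Hmox1 and Slc7a11, and the part of those markers in the values of these genes was not tested. Of 7 cardiomyocyte markers 1, Myh6, was above 0 on all 4 arrays and 0 below, and of 6 fibroblast markers 0 were above and 3 below. The medians were 0.060 and 0.012 for cardiomyocytes and 0.040 and -0.12 for fibroblasts, although the fibroblast median was below 0 on each EPA array, at -0.33 and -0.16. The fibroblast markers Fn1 and Col1a2 were both at -0.77 on EPA array 1 and at 1.88 and 1.61 on EPA array 2. Their values on arrays 1 were shared within 0.002 by 20 probes on both, the smooth muscle marker Tagln included and no probe of the 8 genes or of the pathway list among them. For endothelial, smooth muscle and red cell markers, 1 of 6, 0 of 3 and 0 of 2 were above 0 on all 4 arrays, and 1 endothelial marker, Emcn, was below.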

How the data were processed

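Ratios of supplemented to control cRNA were measured on 4 Agilent rat oligonucleotide arrays. The authors derived expression ratios, per the labels, and their deposited table has a single log ratio for each feature on an array, taken here as log2. How the scans were read, corrected and normalized, the base of the logarithm and its direction are not given in the sources used. The deposited medians lay between -0.0097 and 0.0024. Of 22575 features 20500 had a value. Of these, 12750 probes had 1 symbol, 5 had several and 7745 were unlisted, and the gene IDs of 12720 were found in a gene table of GRCr8, which updated the symbols. Array medians were set to 0, probes of a gene averaged and the 2 arrays of a swap averaged, with the half-difference as error. The size rule took probes past 1.5-fold or 1.3-fold on both arrays. limma 3.58.1 in R 4.3.3 tested the 2 swap means against 0 with Benjamini-Hochberg adjustment at 0.05. A prior check on simulated data shuffled the values of each array over the probes, which removes the correlation between arrays. It set limits only for the size rule and the mean estimate. It therefore does not show how many changed probes this fit can find. With 4 arrays, their number limits the precision, and a p measures only the spread between the EPA and DHA means. The members and lists were chosen with earlier results of these data known. Named were all members, and per pathway group the highest and lowest mean and any gene past 1.3-fold, with the 3 nearest genes of the 3 members farthest from 0; others named were chosen after their values were seen. Alternatives changed centring, scaling, spatial shift, direction, log base, arrays and probes. Columns were inferred from the feature order, by the lag at which the autocorrelation peaked on all 4 arrays. The replicate number marks the dye orientation, per the labels.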

Additional observations from a re-analysis of the deposited data

Results flagged for a closer look

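Of the 79 measured pathway genes, 7 (8.86%) lay on one side of 0 on both EPA arrays and on the other on both DHA arrays, against 8.49% of all named genes. None of the 8 members did. The difference between EPA and DHA was not tested for any of them. Lower with EPA than with DHA were Gsta3, at -0.59, Ptgr1, an alkenal reductase, at -0.49, Gsta4 at -0.34 and Sod1 at -0.22 (EPA minus DHA, log2). Higher with EPA were Gsk3b at 0.59, Aox1 at 0.44 and Txnip at 0.41. The probes of Gsk3b and Aox1, and 1 of 2 each of Txnip and Sod1, lie in the first 66 columns, where DHA array 1 is shifted downward (median -0.12) and EPA array 1 upward (median 0.11). That leaves Gsta3, Ptgr1 and Gsta4 outside them. They are 3 of 45 such list genes (6.67%), against 7.38% of all named genes without a probe in those columns. For Gsta3 the half-difference was 0.035, for Ptgr1 0.16 and for Gsta4 0.21.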

How the results depend on the processing

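The counts of members past 1.5-fold depend on the log base: read as base 10, added after seeing the data, they were 5 with EPA and 6 with DHA, and 6 with each at 1.3-fold. The other alternatives left the EPA count at 0. With DHA the count was 1 when read as Cy5 over Cy3, that of Gsta1, and 2 without either DHA array, where 1 array decides alone. At 1.3-fold the EPA count was 1 with the arrays centred without the first 66 columns (Keap1) and between 1 and 2 with 1 EPA array. The DHA count was 1 with a local median removed and 1 under quantile normalization (Nqo1), 1 as Cy5 over Cy3 (Gsta1), and between 3 and 5 with 1 DHA array. The 7 probes on one side of 0 became 0 as Cy5 over Cy3, where the change of sign on arrays 2 must split each of them. With 1 array left out, which cannot lower the count, they were 7 to 8. The cause of the other changes was not tested. Of the 16 means of the 8 genes, 7 turned sign as Cy5 over Cy3, 1 under quantile normalization (Gsta1 with DHA) and 0 with values as deposited, other centring, equal spread, a local median or, added after seeing the data, column medians removed. Leaving out 1 array turned Hmox1 with EPA (without EPA array 1), Gsta1 with DHA (without DHA array 1) and Hmox1 with DHA (without DHA array 2), and probe 1 alone turned Hmox1 with DHA. The pathway probes passing the joint fit were 0 under each alternative but 1: leaving out the first 66 columns gave 4, and 0 when the arrays were recentred. In that fit limma passed 274 of 14222 probes against 2 after recentring, with a prior of 12.2 against 3.90 degrees of freedom. Limma over the 4 arrays gave 0 with the replicate block (13 list probes at an unadjusted p under 0.05) and 0 without it (4). Deviations of same-numbered arrays correlated at 0.31 across probes, and at 0.64 without the first 66 columns. Arrays 2 of EPA and DHA correlated at 0.65 and arrays 1 at 0.062, and without the first 66 columns at 0.65 and 0.38. Without those columns the arrays of a swap correlated at -0.092 for EPA and -0.16 for DHA. Pathway genes past 1.3-fold with DHA were 2 at equal spread, 3 under quantile normalization and 0 as Cy5 over Cy3, and between 7 and 24 with 1 DHA array. With EPA they were 1 as Cy5 over Cy3 and between 4 and 22 with 1 EPA array. Signal over background is unknown here.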
